A study of Arabidopsis thaliana with 18 samples.

Results

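The 8 genes described here encode proteins that drive or restrain the arrest of root growth at low phosphate, and transporters of aluminium tolerance linked to the same pathway: STOP1 (AT1G34370), ALMT1 (AT1G08430), MATE (AT1G51340), LPR1 (AT1G23010), LPR2 (AT1G71040), PDR2 (AT5G23630), ALS3 (AT2G37330) and STAR1 (AT1G67940). They were chosen by their gene identifiers, 8 of the 37037 entries in the deposited table, and all 8 had enough reads to be among the 19982 genes tested. Poly(A) RNA was sequenced from Arabidopsis thaliana roots of the wild type Col-0, with 3 libraries for each of 6 groups, 18 in all. Seedlings had 8 days on either 5 µM phosphate (low; the sample labels call it without phosphate) or 625 µM phosphate (full). At each level there was a group given 5 µM trans-zeatin for 8 h, a group given 5 µM cis-zeatin for 8 h and an untreated group. The zeatins are cytokinins, plant hormones that restrain root growth, and the isomers differ only in the geometry of the double bond in their side chain. The labels name no mutant and no vehicle control, and do not say whether the 3 replicates were separate cultures, so p-values measure only the spread between these samples.

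STOP1 is a zinc-finger transcription factor that accumulates in the nucleus of root cells under acid, aluminium or low-phosphate stress. Its best known target is ALMT1, a plasma-membrane channel that releases malate. In the cell wall malate and the ferroxidase LPR1, with its close relative LPR2, lead to the deposition of ferric iron, and at the root tip this is followed by callose deposition, stiffened walls and an exhausted meristem. PDR2, an ATPase of the endoplasmic reticulum, restrains LPR1, and the transporter subunits ALS3 and STAR1 also limit iron accumulation in low phosphate.

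Each library held 20839562 to 21871669 counted reads. Values are given as CPM (read counts relative to library size, scaled for library composition), and changes as log2 fold changes ± SE with n = 3 libraries per group, and "rose", "fell" and similar words are kept for an adjusted p below 0.05 in edgeR's quasi-likelihood test over all tested genes. The libraries that stood apart most from their groups were replicate 2 of cis-zeatin in low phosphate, with a chi-square per degree of freedom of 28.4 and 30.7 against its group, and replicate 2 of trans-zeatin in low phosphate, with 13.6 and 20.7. All 9 root markers had reads in every group, but their levels moved: 4 rose and 1 fell in low phosphate, 6 fell and 1 rose with trans-zeatin and 4 fell and 1 rose with cis-zeatin in full phosphate, and 4 fell and 1 rose with trans-zeatin and 2 fell and 1 rose with cis-zeatin in low phosphate. Of all tested genes 44.7% were called in low phosphate, 49.4% with trans-zeatin and 26.2% with cis-zeatin in full phosphate, and 32.2% and 31.2% in low phosphate. The root-marker counts for low phosphate and for cis-zeatin in low phosphate were near these shares. The part of these root-marker shifts in the results below was not tested. The summed level of 12 shoot markers was 22.4 to 29.6 CPM with trans-zeatin, 15.6 to 18.3 CPM with cis-zeatin and 15.3 to 22.5 CPM without zeatin in low phosphate, against 136.9 to 187 CPM with trans-zeatin, 46.0 to 52.9 CPM with cis-zeatin and 44.7 to 89.9 CPM without zeatin in full phosphate. Of these markers 3 were at 0 in untreated roots in low phosphate and at most 1 in any other group. With trans-zeatin in full phosphate 7 of the 8 tested shoot markers rose (all tested genes: 24.2% higher), and all 8 fell in low phosphate without zeatin (21.8% lower). One of them, LHCB2.1, passed the minimum count only because of the trans-zeatin libraries in full phosphate, where it was higher. It had 0.739 to 1.54 CPM there, against 0.0902 to 0.819 CPM in untreated roots in full phosphate. Its part in both counts is given as a description only. The part of the shoot markers in the results below was not tested. Going by how many reads were removed for undetermined bases, the libraries form 3 sets, which the labels do not explain: A (81544 to 85178 reads) holds the untreated and trans-zeatin groups in full phosphate, B (22738 to 25354) holds cis-zeatin in full phosphate, untreated roots in low phosphate and replicate 1 of trans-zeatin in low phosphate, and C (40794 to 58614) holds the other low-phosphate zeatin libraries. For low against full phosphate, with or without a zeatin, for cis-zeatin in full phosphate and for the isomers in full phosphate, the groups compared share no set, so set and condition cannot be told apart. The same holds for cis-zeatin in low phosphate, apart from the link through the trans-zeatin group. For trans-zeatin in low phosphate, replicate 1 shares set B with the untreated roots, and replicates 2 and 3 lie in set C. Set and trans-zeatin are thus partly mixed there, also where this response is compared with that in full phosphate. For the gene lists below, values with the set as a term were not examined.

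Low phosphate raised ALMT1, LPR1 and ALS3 and lowered STOP1 and MATE in untreated roots. Of the 8 genes 3 rose and 2 fell, against 44.7% of all tested genes called in either direction, with 22.9% higher and 21.8% lower, so the number of members called is near the background. The median change of the 8 genes was 0.04, against 0.00 over all tested genes. trans-Zeatin in low phosphate lowered 6 of the 8 genes and raised 1 (all tested genes called: 32.2%, 13.8% higher and 18.4% lower; median -0.37, against -0.01 over all), and cis-zeatin there lowered 4 (31.2%, 13.1% higher and 18.1% lower; median -0.25, against -0.03). In full phosphate trans-zeatin lowered 4 and raised 1 (49.4%, 24.2% higher and 25.3% lower; median -0.35, against -0.01), and cis-zeatin lowered 3 and raised 1 (26.2%, 12.7% higher and 13.5% lower; median -0.17, against -0.03). At each phosphate level the zeatin responses share their untreated libraries, so their values are set side by side and not counted as separate evidence.

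**Figure D1:**
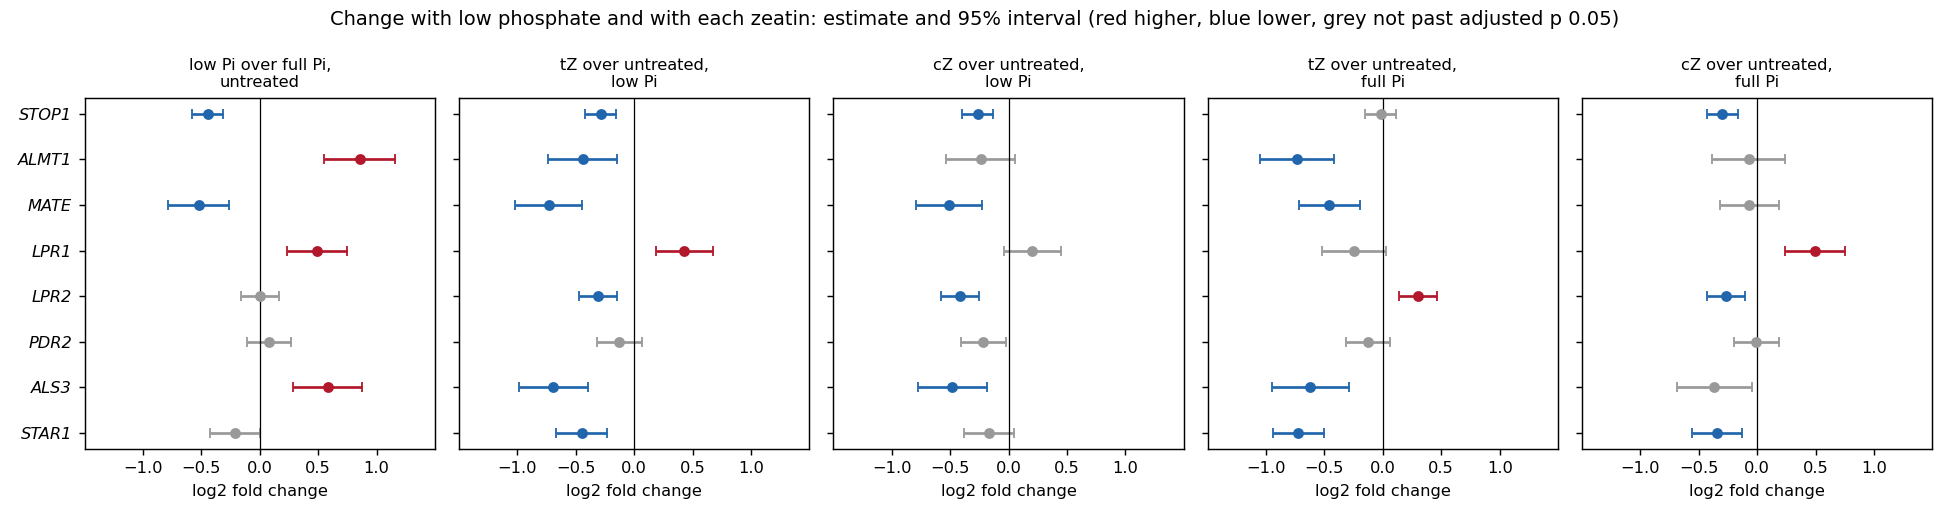
Log2 fold change of each gene (points) with its 95% interval (bars, x axis) for low over full phosphate (Pi) in untreated roots and for trans-zeatin (tZ) or cis-zeatin (cZ) over untreated roots at each phosphate level, 3 libraries per group. ALMT1 and STOP1 lie on opposite sides of 0 in low phosphate, and LPR2 lies above 0 only in the panel for trans-zeatin in full phosphate.

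STOP1 fell in low phosphate although its target ALMT1 rose. STOP1 had 139.5, 133 and 141 CPM in untreated roots in low phosphate, against 186, 187 and 190.3 CPM in untreated roots in full phosphate. The groups were far apart, with a log2 change of -0.45 ± 0.06 (edgeR, adjusted p = 6.95e-06). In low phosphate it had 119.5, 108 and 112 CPM with trans-zeatin and 115, 118 and 111 CPM with cis-zeatin, both below the untreated roots there. These changes were -0.29 ± 0.06 for trans-zeatin (edgeR, adjusted p = 0.00129) and -0.27 ± 0.06 for cis-zeatin (edgeR, adjusted p = 0.00264). The cis-zeatin call was lost when only the compared groups were fitted (-0.23, adjusted p = 0.0729), and within sequencing set B the trans-zeatin change was -0.20 (adjusted p = 0.101). In full phosphate STOP1 had 189, 186 and 182 CPM with trans-zeatin, which overlapped the untreated libraries (95% interval of the change -0.15 to 0.11). With cis-zeatin it had 157, 147 and 155 CPM in full phosphate and fell by 0.30 ± 0.06 (edgeR, adjusted p = 0.000982).

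ALMT1 had its highest level in starved, untreated roots. It had 65.8, 53.7 and 56.1 CPM in untreated roots in low phosphate, against 24.9, 34.8 and 37.3 CPM in untreated roots in full phosphate, a rise of 0.86 ± 0.15 (edgeR, adjusted p = 6.68e-05). No library of either group overlapped the other group. In bulk roots a change in the number of cells that express a gene and a change in the RNA per cell cannot be told apart. Of 4 root-cap markers 3 also rose in this comparison (BRN2 0.87 ± 0.24, BRN1 0.67 ± 0.22, SMB 0.49 ± 0.17), against 22.9% of all tested genes. The summed level of the 4 was 21.2 to 29.4 CPM in low phosphate against 15.1 to 16.9 CPM in full phosphate, and their part in the ALMT1 result was not tested.

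trans-Zeatin lowered ALMT1 at both phosphate levels. In full phosphate it had 17.8, 16.4 and 24.2 CPM with trans-zeatin, all below the untreated libraries given above, a change of -0.74 ± 0.15 (edgeR, adjusted p = 0.000456). These groups belong to the same sequencing set. The summed root-cap markers were also lower, at 11.4 to 13.8 CPM with trans-zeatin against 15.1 to 16.9 CPM in untreated roots. BRN2 was the 1 of 4 past the test (-0.88 ± 0.28), near the 25.3% of all tested genes that were lower. The part of the root-cap markers in this fall of ALMT1 was not tested. With cis-zeatin ALMT1 had 30.4, 31.6 and 30.2 CPM, inside the untreated range (95% interval of the change -0.38 to 0.24). The summed root-cap markers were lower with cis-zeatin as well, at 10.88 to 14.35 CPM, with 1 of 4 past the test (all tested genes: 13.5% lower). In low phosphate ALMT1 had 53.0, 37.1 and 39.3 CPM with trans-zeatin, below all 3 untreated libraries, but replicate 1 lay close to the lowest of them. The change of -0.44 ± 0.14 (edgeR, adjusted p = 0.0219) lost its call without untreated replicate 1 (-0.35, adjusted p = 0.109), without trans-zeatin replicate 2 (-0.34, adjusted p = 0.109) or without trans-zeatin replicate 3 (-0.38, adjusted p = 0.0909). Within set B, where the trans-zeatin group is replicate 1 alone, it was -0.14 (adjusted p = 0.665). With cis-zeatin in low phosphate ALMT1 had 48.1, 48.2 and 52.4 CPM, a change of -0.24 ± 0.14 that was not past the test (edgeR, adjusted p = 0.22).

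In order of mean level ALMT1 ran from 58.5 CPM in untreated roots in low phosphate through 49.6 (cis-zeatin) and 43.2 (trans-zeatin) in low phosphate to 32.4 (untreated), 30.7 (cis-zeatin) and 19.4 CPM (trans-zeatin) in full phosphate. The highest group lay apart from the second, and the lowest from the fifth, while the neighbours between them overlapped. Low phosphate raised ALMT1 under trans-zeatin (1.15 ± 0.15; edgeR, adjusted p = 1.55e-06) and under cis-zeatin (0.69 ± 0.15; edgeR, adjusted p = 0.00059) as well.

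MATE encodes a citrate exporter that acts beside ALMT1 in aluminium tolerance. It moved against ALMT1 in low phosphate, with 8.73, 6.97 and 6.88 CPM in untreated roots in low phosphate, against 8.93, 11.7 and 11.9 CPM in untreated roots in full phosphate (-0.53 ± 0.13; edgeR, adjusted p = 0.00188). Replicate 1 of both groups lay close together, and the groups did not overlap. In low phosphate it had 4.55, 4.21 and 4.84 CPM with trans-zeatin and 5.29, 4.97 and 5.61 CPM with cis-zeatin. Those were its lowest levels, and the changes from untreated roots were -0.73 ± 0.14 for trans-zeatin (edgeR, adjusted p = 0.000273; -0.72 within set B, adjusted p = 0.0166) and -0.51 ± 0.14 for cis-zeatin (edgeR, adjusted p = 0.00647). Without untreated replicate 1 the cis-zeatin change was -0.39 (adjusted p = 0.0516). In full phosphate MATE had 8.16, 6.99 and 8.48 CPM with trans-zeatin, below every untreated library (-0.46 ± 0.13; edgeR, adjusted p = 0.00451). With cis-zeatin it had 9.27, 10.4 and 11.3 CPM, within the untreated range (95% interval of the change -0.32 to 0.19).

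**Figure D2:**
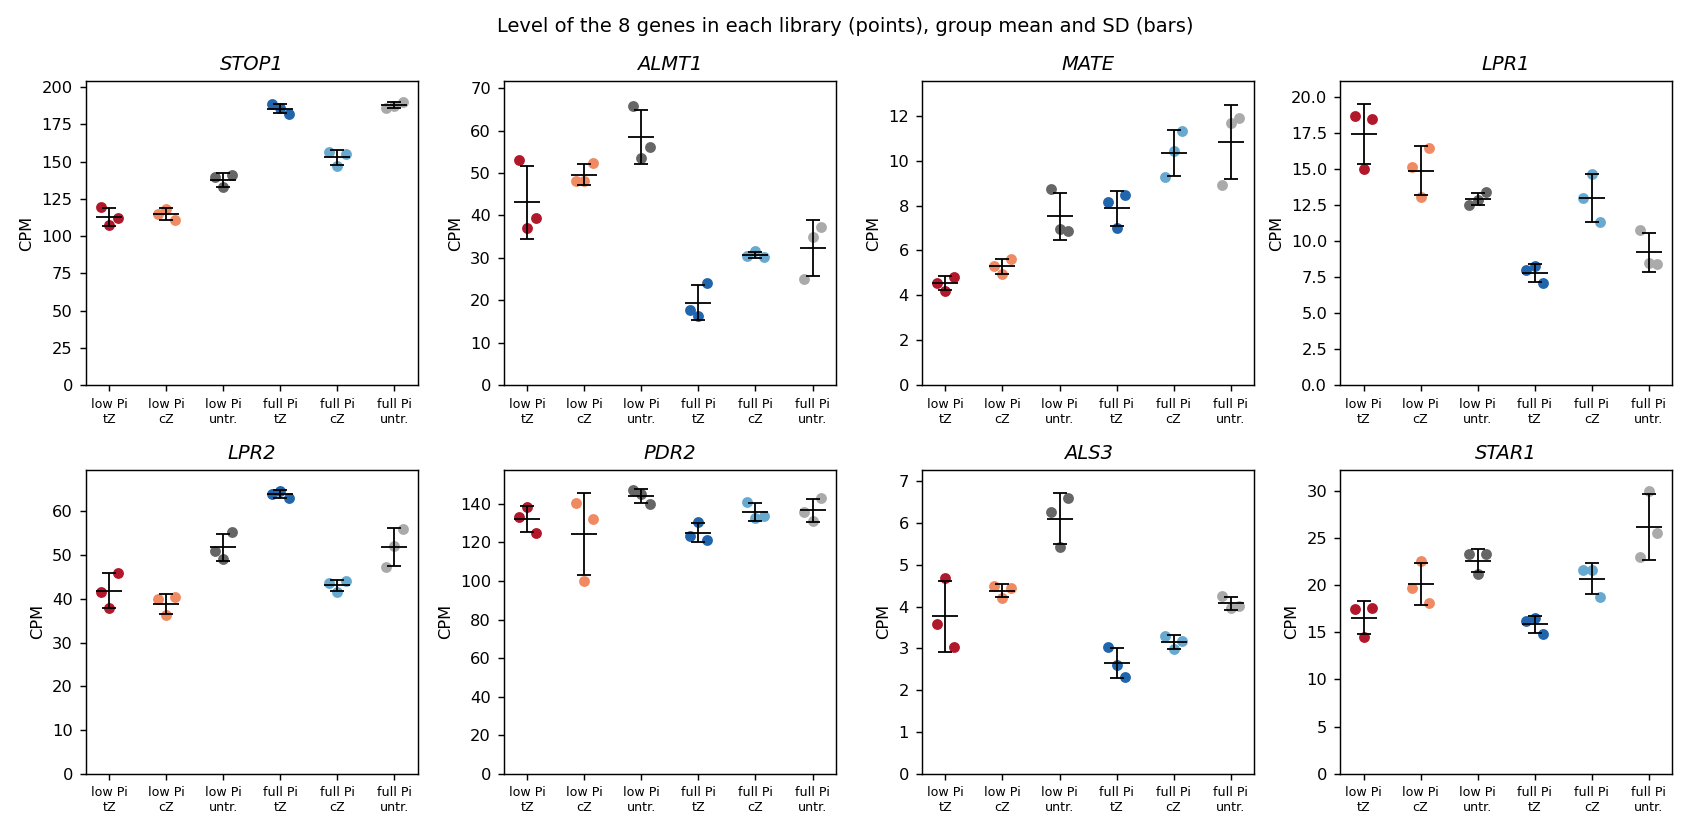
Level in CPM (y axis, from 0) of the 8 genes in each of the 18 libraries (points), with the mean and SD of the 3 libraries of a group (bars), for trans-zeatin (tZ), cis-zeatin (cZ) and untreated roots in low and full phosphate (Pi). ALMT1 is highest in untreated roots in low phosphate at 53.7 to 65.8 CPM, and LPR1 and LPR2 order the trans-zeatin groups in opposite ways.

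LPR1, the main ferroxidase gene of the growth arrest, was raised by low phosphate. It had 12.5, 12.9 and 13.4 CPM in untreated roots in low phosphate, against 10.8, 8.47 and 8.41 CPM in untreated roots in full phosphate, without overlap (0.49 ± 0.12; edgeR, adjusted p = 0.00301). In low phosphate trans-zeatin raised LPR1 further, to 18.7, 15.01 and 18.5 CPM (0.43 ± 0.12; edgeR, adjusted p = 0.00737; 0.54 within set B, adjusted p = 0.016). In full phosphate it had 7.97, 8.27 and 7.06 CPM with trans-zeatin, its lowest level, with a change of -0.25 ± 0.13 that was not past the test (edgeR, adjusted p = 0.123). The response to trans-zeatin thus differed between phosphate levels, by 0.68 ± 0.18 (low minus full; edgeR, adjusted p = 0.00942). cis-Zeatin gave 15.2, 13.1 and 16.5 CPM in low phosphate (0.20 ± 0.12, edgeR, adjusted p = 0.207) and 13.01, 14.6 and 11.4 CPM in full phosphate. In full phosphate that was a rise of 0.50 ± 0.12 (edgeR, adjusted p = 0.00447). The difference between these cis-zeatin responses was not past the test (-0.29 ± 0.17, edgeR, adjusted p = 0.371), and set and cis-zeatin cannot be told apart in it. In the reference annotation LPR1 overlaps FRO3 (AT1G23020), a ferric reductase gene, and reads of the shared stretch may be uncertain. FRO3 fell in low phosphate, where LPR1 rose (-1.02 ± 0.14). With cis-zeatin in full phosphate, where LPR1 rose, FRO3 had the same sign but was short of the test (0.22 ± 0.13; edgeR, adjusted p = 0.242). With trans-zeatin in full phosphate FRO3 rose (0.48 ± 0.13) and LPR1 was short of the test.

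LPR2 followed another pattern, with no change past the test in low phosphate alone. It had 51.0, 49.0 and 55.2 CPM in untreated roots in low phosphate, against 47.4, 52.2 and 55.9 CPM in untreated roots in full phosphate (95% interval of the change -0.17 to 0.16). In low phosphate it had 41.5, 38.0 and 46.0 CPM with trans-zeatin and 39.9, 36.2 and 40.4 CPM with cis-zeatin, all below the untreated libraries. The falls were 0.31 ± 0.08 with trans-zeatin (edgeR, adjusted p = 0.00449) and 0.42 ± 0.08 with cis-zeatin (edgeR, adjusted p = 0.000336). In full phosphate trans-zeatin raised LPR2 to 64.0, 64.8 and 63.0 CPM, above every other library (0.30 ± 0.08; edgeR, adjusted p = 0.00287). cis-Zeatin lowered it there to 43.6, 41.7 and 44.1 CPM (-0.27 ± 0.08; edgeR, adjusted p = 0.0149). That call was lost without untreated replicate 3 (-0.21, adjusted p = 0.0973) or without cis-zeatin replicate 2 (-0.24, adjusted p = 0.0653). The response of LPR2 to trans-zeatin differed between phosphate levels by -0.61 ± 0.11 (edgeR, adjusted p = 0.000603), opposite in sign to that of LPR1.

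In the fit of all 18 libraries PDR2 passed the test in no comparison. In low phosphate it had 133, 138 and 125 CPM with trans-zeatin, 140.5, 100.1 and 132 CPM with cis-zeatin and 147, 145 and 140.1 CPM without zeatin. In full phosphate it had 123, 131 and 121 CPM with trans-zeatin, 141, 133 and 134 CPM with cis-zeatin and 136, 131 and 143 CPM without zeatin. The low value of 100.1 CPM belongs to the cis-zeatin library that stood apart from its group. The 95% interval for low against full phosphate in untreated roots was -0.11 to 0.27. Fitted on the compared groups only, trans-zeatin in full phosphate passed (-0.13, adjusted p = 0.0437). With all groups fitted, cis-zeatin in low phosphate gave -0.22 ± 0.09 (edgeR, adjusted p = 0.0813). That value was -0.31 without cis-zeatin replicate 1 (adjusted p = 0.0154) and -0.081 without cis-zeatin replicate 2, the library that stood apart (adjusted p = 0.414).

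ALS3 and STAR1 encode the subunits of a transporter complex. ALS3 rose in low phosphate and STAR1 was short of the test, and the difference between their changes was not tested. ALS3 had 6.27, 5.43 and 6.60 CPM in untreated roots in low phosphate, against 4.24, 3.96 and 4.02 CPM in untreated roots in full phosphate, without overlap (0.58 ± 0.14; edgeR, adjusted p = 0.00221). STAR1 had 23.3, 21.2 and 23.3 CPM in untreated roots in low phosphate, against 23.0, 29.9 and 25.6 CPM in untreated roots in full phosphate. Its groups overlapped, and its change of -0.21 ± 0.10 was not past the test (edgeR, adjusted p = 0.0999). Without untreated replicate 1 in full phosphate the change was -0.30 (adjusted p = 0.0336), and without untreated replicate 2 there it was -0.105 (adjusted p = 0.466). In the annotation ALS3 overlaps RS2Z33 (AT2G37340) and STAR1 overlaps AT1G67950, so a part of their reads may be uncertain. In low phosphate RS2Z33 fell (-0.51 ± 0.09) and AT1G67950 rose (0.35 ± 0.11).

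Zeatin lowered ALS3 in low phosphate. It had 3.59, 4.69 and 3.02 CPM with trans-zeatin and 4.48, 4.20 and 4.45 CPM with cis-zeatin in low phosphate, below the untreated libraries. The changes were -0.69 ± 0.14 for trans-zeatin (edgeR, adjusted p = 0.000716; -0.76 within set B, adjusted p = 0.00452) and -0.48 ± 0.14 for cis-zeatin (edgeR, adjusted p = 0.0127). Without untreated replicate 3 the change with cis-zeatin was -0.42 (adjusted p = 0.0589). In full phosphate ALS3 had 3.02, 2.61 and 2.30 CPM with trans-zeatin, a fall of 0.62 ± 0.16 (edgeR, adjusted p = 0.0027). It had 3.30, 2.98 and 3.18 CPM with cis-zeatin there, below the untreated libraries, but the change was not past the test (-0.37 ± 0.15; edgeR, adjusted p = 0.0871).

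STAR1 had 17.5, 14.5 and 17.6 CPM with trans-zeatin in low phosphate, below the untreated libraries (-0.45 ± 0.11; edgeR, adjusted p = 0.00217; -0.37 within set B, adjusted p = 0.0878). With cis-zeatin it had 19.7, 22.5 and 18.1 CPM there (-0.17 ± 0.10, edgeR, adjusted p = 0.244). In full phosphate trans-zeatin gave 16.2, 16.5 and 14.8 CPM, the strongest fall of STAR1 in any of the 4 zeatin responses (-0.72 ± 0.11; edgeR, adjusted p = 9.07e-06). The overlapping AT1G67950 fell there too (-0.52 ± 0.12; edgeR, adjusted p = 0.00091), and whether shared reads enter the STAR1 value was not tested. cis-Zeatin gave 21.6, 21.6 and 18.8 CPM there (-0.34 ± 0.10; edgeR, adjusted p = 0.017). That call was lost without untreated replicate 2 (-0.23, adjusted p = 0.139) or without cis-zeatin replicate 3 (-0.28, adjusted p = 0.092).

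Several calls in the low-phosphate zeatin comparisons were lost when the sequencing set was fitted, some of them with changes of about the same size. The term contrasted set C with sets A and B together, and only trans-zeatin replicate 1 in low phosphate links sets B and C. With the set as a term, 3 of the 7 calls with trans-zeatin were left (MATE -0.73, LPR1 0.53 and ALS3 -0.76) and 0 of the 4 calls with cis-zeatin. Calls over all 19982 tested genes were also fewer with the term. They numbered 4140 with trans-zeatin, against 6440 without the term, and 2678 with cis-zeatin, against 6233. The largest move was that of ALMT1, to -0.14 with trans-zeatin (adjusted p = 0.657) and to 0.23 with cis-zeatin (adjusted p = 0.59). STOP1 changed by -0.21 with trans-zeatin (adjusted p = 0.103) and by -0.15 with cis-zeatin (adjusted p = 0.463). LPR2 was at -0.32 with trans-zeatin (adjusted p = 0.0571) and -0.43 with cis-zeatin (adjusted p = 0.0576), close to its values without the term. With cis-zeatin MATE was at -0.50 (adjusted p = 0.262) and ALS3 at -0.59 (adjusted p = 0.186), against -0.51 and -0.48 without the term. STAR1 was at -0.37 with trans-zeatin (adjusted p = 0.0988). Within set B, trans-zeatin replicate 1 against the 3 untreated libraries gave -0.32 for LPR2, with the lone library assumed to vary like the other groups.

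The isomers were compared directly at the same dose and time, in 16 differences (8 genes at 2 phosphate levels). In full phosphate 6 of the 8 genes differed, against 41.2% of all tested genes (20.7% higher, 20.5% lower): STOP1 and LPR2 were higher, and ALMT1, MATE, LPR1 and STAR1 lower, with trans-zeatin than with cis-zeatin. LPR1 had 7.06 to 8.27 CPM with trans-zeatin against 11.4 to 14.6 CPM with cis-zeatin (-0.74 ± 0.13; edgeR, adjusted p = 9.77e-05). LPR2 had 63.0 to 64.8 CPM with trans-zeatin against 41.7 to 44.1 CPM with cis-zeatin (0.57 ± 0.08; edgeR, adjusted p = 8.79e-06). ALMT1 changed by -0.66 ± 0.15 (edgeR, adjusted p = 0.00172), STOP1 by 0.28 ± 0.06 (edgeR, adjusted p = 0.0013) and STAR1 by -0.38 ± 0.11 (edgeR, adjusted p = 0.00734), trans-zeatin over cis-zeatin. AT1G67950, which overlaps STAR1, was lower as well (-0.67 ± 0.12). MATE differed by -0.39 ± 0.13 (edgeR, adjusted p = 0.0171), and lost its call without trans-zeatin replicate 2 (-0.31, adjusted p = 0.0912) or cis-zeatin replicate 3 (-0.32, adjusted p = 0.0794). For the genes not past the test the intervals were -0.31 to 0.07 for PDR2 and -0.60 to 0.09 for ALS3. The full-phosphate groups of the isomers lie in sets A and B, so set and isomer cannot be told apart.

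In low phosphate 0 of the 8 genes differed between the isomers in edgeR, with 2.77% of all tested genes called (1.35% higher, 1.42% lower). At an unadjusted p under 0.05 edgeR gave 1 gene (STAR1), and DESeq2 called 0. The intervals, which do not show that the isomers act alike, ran from -0.15 to 0.11 for STOP1, -0.50 to 0.10 for ALMT1, -0.02 to 0.47 for LPR1, -0.06 to 0.27 for LPR2 and -0.10 to 0.28 for PDR2. For MATE the interval was -0.52 to 0.08, for ALS3 -0.52 to 0.10 and for STAR1 -0.51 to -0.06. Within set C alone the differences were -0.38 for ALMT1 (adjusted p = 0.165) and 0.17 for LPR1 (adjusted p = 0.507), and none of the 8 was past the test there.

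**Figure D3:**
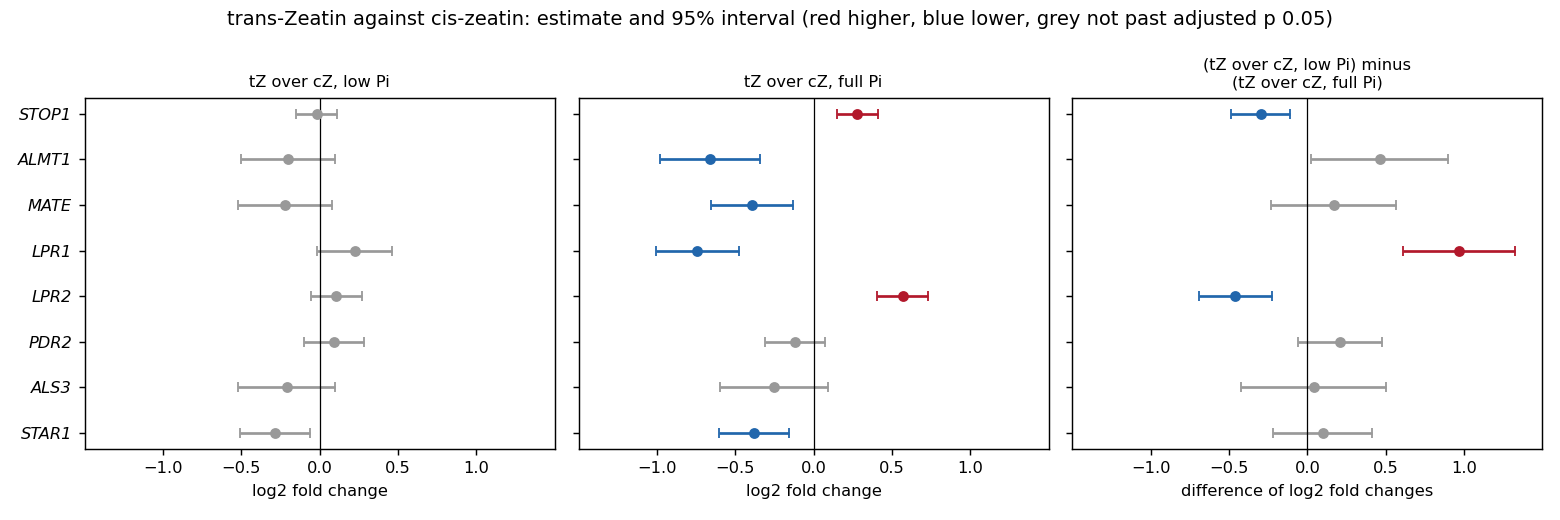
Log2 fold change of trans-zeatin (tZ) over cis-zeatin (cZ) in low and in full phosphate (Pi), and the difference between both (right panel), for the 8 genes, with 95% intervals (bars, x axis) and 3 libraries per group. LPR1, at -0.74 in full phosphate, and LPR2, at 0.57, move to either side of 0 in the right panel at 0.97 and -0.46.

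Whether a response depended on phosphate was tested as a difference of changes, low phosphate minus full phosphate. For trans-zeatin 3 of the 8 genes passed, against 20.4% of all tested genes (9.28% higher, 11.2% lower): LPR1, LPR2 and STOP1. The STOP1 difference of -0.27 ± 0.09 (edgeR, adjusted p = 0.038) was lost in 10 of the 12 fits that left out 1 library (adjusted p up to 0.09), with no filter on low counts (adjusted p = 0.0733) and with the sequencing set as a term (-0.19, adjusted p = 0.308). It passed without untreated replicate 2 or trans-zeatin replicate 1 in low phosphate. For cis-zeatin edgeR called 0 of the 8 (4.21% of all tested genes, 1.58% higher and 2.64% lower), with 1 gene at an unadjusted p under 0.05 (MATE, -0.44 ± 0.18) and 0 called by DESeq2. At each phosphate level the cis-zeatin and untreated groups share no set, so set and cis-zeatin cannot be told apart in these values. The difference between the isomers depended on phosphate for 3 of the 8 genes, against 18.3% of all tested genes (8.61% higher, 9.74% lower): LPR1 (0.97 ± 0.17; edgeR, adjusted p = 0.000756), LPR2 (-0.46 ± 0.11; edgeR, adjusted p = 0.00715) and STOP1 (-0.30 ± 0.09; edgeR, adjusted p = 0.0236). These values contain the isomer difference in full phosphate, which compares set A with set B, so set and isomer cannot be told apart in them. The STOP1 value was not past the test without trans-zeatin replicate 2 in full phosphate (adjusted p = 0.053), without cis-zeatin replicate 2 there (adjusted p = 0.0701) or in a fit of the compared groups only (adjusted p = 0.0574). ALMT1, at 0.46 ± 0.21 (edgeR, adjusted p = 0.135), passed only without trans-zeatin replicate 3 in full phosphate (0.65, adjusted p = 0.0384).

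Low against full phosphate was also compared within each zeatin, where the groups share no sequencing set, so set and phosphate cannot be told apart. Under trans-zeatin 3 of the 8 genes were higher and 3 lower in low phosphate, against 64.1% of all tested genes (32.7% higher, 31.3% lower). LPR1 rose by 1.16 ± 0.12 (edgeR, adjusted p = 9.02e-08), while STOP1 fell by 0.71 ± 0.06 (edgeR, adjusted p = 6.14e-09), MATE by 0.80 ± 0.14 (edgeR, adjusted p = 4.15e-05) and LPR2 by 0.61 ± 0.08 (edgeR, adjusted p = 1.07e-06). ALS3 rose by 0.51 ± 0.16 (edgeR, adjusted p = 0.00847), with groups that overlapped, and without trans-zeatin replicate 2 in low phosphate the value was 0.32 (adjusted p = 0.0892). Under cis-zeatin 2 were higher and 2 lower, against 49.2% (24.8% higher, 24.4% lower): besides ALMT1, ALS3 rose by 0.47 ± 0.15 (edgeR, adjusted p = 0.0151), and STOP1 fell by 0.42 ± 0.06 (edgeR, adjusted p = 1.84e-05) and MATE by 0.97 ± 0.13 (edgeR, adjusted p = 5.12e-06). The ALS3 value lost its call without cis-zeatin replicate 2 in full phosphate (0.43, adjusted p = 0.0531), and with the set as a term STOP1 was -0.29 (adjusted p = 0.0758), ALS3 0.37 (adjusted p = 0.423) and ALMT1 1.16 (adjusted p = 0.00141).

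Around ALMT1, 12 genes for the supply of malate and citrate were examined. In low phosphate 6 of the 12 rose and 3 fell, with a median of 0.31 against 0.00 over all tested genes, of which 22.9% were higher and 21.8% lower. PPC2 (1.74 ± 0.09) and PPC1 (1.61 ± 0.08) encode phosphoenolpyruvate carboxylase, which makes the precursor of malate, and PPCK1 (1.51 ± 0.10) encodes a kinase that activates it. TDT, for the malate transporter of the vacuole membrane, fell (-1.93 ± 0.13), to a mean of 16.4 ± 1.73 CPM in low phosphate against 62.6 ± 7.09 CPM in full phosphate (SD, n = 3 each). In low phosphate 8 of the 12 fell and 1 rose with trans-zeatin (all tested genes: 18.4% lower, 13.8% higher), and 6 fell and 1 rose with cis-zeatin (18.1% lower, 13.1% higher). PPCK1 (-1.79 ± 0.10 with trans-zeatin, -1.45 ± 0.10 with cis-zeatin), PPCK2 (-2.40 ± 0.15 and -1.82 ± 0.14) and PPC1 (-1.30 ± 0.08 and -1.003 ± 0.083) fell, and TDT rose (1.396 ± 0.130 and 0.88 ± 0.13). In full phosphate 8 fell and 3 rose with trans-zeatin (25.3% lower, 24.2% higher), among them PPCK2 (-1.80 ± 0.15), PPC3 (-1.42 ± 0.12), PPCK1 (-1.20 ± 0.11) and PPC1 (-0.99 ± 0.08). With cis-zeatin 7 fell and 1 rose there (13.5% lower, 12.7% higher), among them PPCK2 (-1.66 ± 0.15).

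**Figure D4:**
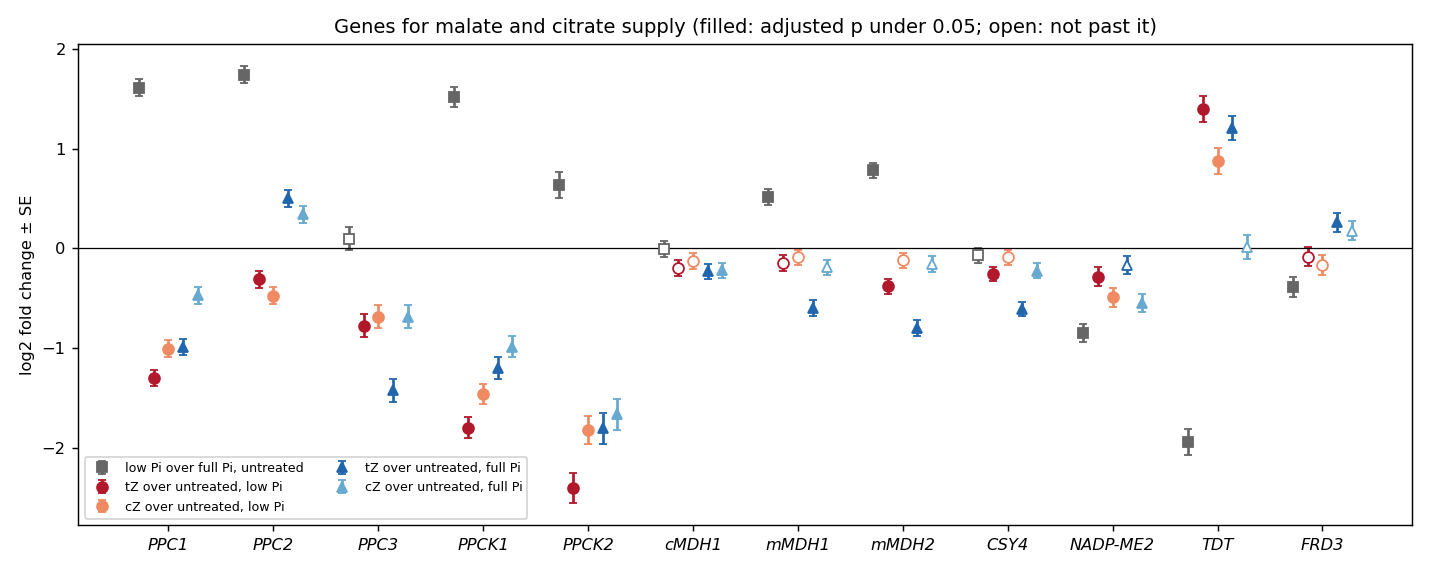
Log2 fold change ± SE (y axis) of the 12 genes for malate and citrate supply in 5 comparisons, low over full phosphate (Pi) in untreated roots and each zeatin (tZ, cZ) over untreated roots at each phosphate level; filled symbols are past an adjusted p of 0.05. PPC1 and PPCK1 lie at 1.61 and 1.51 for low phosphate and below 0 for all 4 zeatin responses, and TDT lies at -1.93 for low phosphate.

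Most other STOP1 targets fell in low phosphate. Of 10 targets 9 had enough reads, and in low phosphate 6 fell and 2 rose (all tested genes: 21.8% lower, 22.9% higher), with a median of -0.39 against 0.00 over all tested genes. STOP2, a close relative of STOP1, fell (-1.002 ± 0.087), as did the glutamate dehydrogenase gene GDH1 (-1.11 ± 0.12) and the nitrate transporter gene NRT1.1 (-1.22 ± 0.13). PGIP2, for an inhibitor of wall-degrading polygalacturonases, rose (2.80 ± 0.32), to 3.95 ± 0.723 CPM in low phosphate against 0.561 ± 0.398 CPM in full phosphate (SD, n = 3 each), and HAK5 also rose (2.13 ± 0.27). With zeatin 5 of the 9 fell and 1 rose in low phosphate for each isomer (all tested genes: 18.4% lower and 13.8% higher with trans-zeatin, 18.1% and 13.1% with cis-zeatin), among them the potassium transporter gene HAK5 (-1.97 ± 0.27 with trans-zeatin, -1.82 ± 0.26 with cis-zeatin). In full phosphate 4 fell and 2 rose with trans-zeatin (25.3% lower, 24.2% higher) and 3 fell and 1 rose with cis-zeatin (13.5% lower, 12.7% higher). GDH1 rose in all 4 zeatin responses (0.96 to 1.93).

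Genes whose products control STOP1 protein were also measured. In low phosphate 3 of 10 fell, near the 21.8% of all tested genes that were lower, and the others were not past the test: RAH1, for an F-box protein that marks STOP1 for degradation (-1.08 ± 0.07), and the kinase genes MKK1 (-0.80 ± 0.11) and MEKK1 (-0.33 ± 0.08). RAE1, the related F-box gene that STOP1 itself activates, fell in low phosphate with trans-zeatin (-0.77 ± 0.10) and with cis-zeatin (-0.68 ± 0.10), to means of 53.0 ± 8.78 and 56.2 ± 7.16 CPM against 90.2 ± 4.73 CPM in untreated roots (SD, n = 3 each). Of the 10 genes 3 fell there with trans-zeatin and 2 with cis-zeatin, near the background of 18.4% and 18.1% lower. In full phosphate trans-zeatin lowered MKK2 (-0.27 ± 0.07) and raised SIZ1 (0.22 ± 0.08). With cis-zeatin there MKK1 had the largest value (-0.24 ± 0.11; edgeR, adjusted p = 0.11), short of the test. Of 3 regulators of the ALMT1 promoter, the repressor gene WRKY46 rose in low phosphate (1.56 ± 0.54), at a mean of 0.635 ± 0.234 CPM in low phosphate against 0.213 ± 0.184 CPM in full phosphate (SD, n = 3 each). Its reads were few, with 0 to 0.32 CPM in the untreated full-phosphate libraries. Only low-phosphate libraries, where it was higher, carried WRKY46 past the minimum count, so its rise is given as a description only. CAMTA1 rose with trans-zeatin in full phosphate (0.31 ± 0.09).

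The peptide gene CLE14, which acts downstream of iron deposition on the meristem, rose in low phosphate (0.46 ± 0.11). It had 10.3 to 10.7 CPM in untreated roots in low phosphate, against 6.81 to 8.80 CPM in untreated roots in full phosphate. With trans-zeatin in low phosphate CLE14 fell (-0.54 ± 0.11), as did the receptor genes PEPR2 (-0.82 ± 0.12) and CLV2 (-0.29 ± 0.09). With cis-zeatin there PEPR2 (-0.54 ± 0.11) and CLV2 (-0.42 ± 0.09) fell, and CLE14 was not past the test (-0.27 ± 0.11, edgeR, adjusted p = 0.0713). In full phosphate PEPR2 fell with trans-zeatin (-1.25 ± 0.12) and with cis-zeatin (-0.58 ± 0.11). Among 5 further genes of aluminium tolerance NIP1;2, XTH17 and XTH31 rose and XTH15 fell in low phosphate (all tested genes: 22.9% higher, 21.8% lower). The wall-enzyme genes XTH15 (-2.29 to -1.79) and XTH17 (-1.87 to -0.88) fell in all 4 zeatin responses, and NIP1;2, for an aquaporin-type carrier of aluminium malate, rose in all 4 (0.45 to 0.64). XTH31, another wall-enzyme gene, rose with cis-zeatin in full phosphate (0.71 ± 0.11) and in low phosphate (0.28 ± 0.10). With trans-zeatin XTH31 fell in full phosphate (-0.91 ± 0.11) and was short of the test in low phosphate (0.02 ± 0.10).

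Over the 18 libraries, which share treatment groups and sequencing sets, the tested genes whose log2 CPM followed each member most closely were listed by Pearson's r as a description. For STOP1 they were AT3G25190 (VTL5, a vacuolar iron transporter gene, r = 0.984), AAE3 (0.983) and PUR ALPHA-1 (0.981). For ALMT1 they were AT1G73340 (a cytochrome P450 gene, r = 0.966), AT5G24880 (0.95) and 3BETAHSD/D2 (0.949). MATE was followed by TIFY10B (0.957), CRK26 (0.952) and ALMT10 (0.947), and LPR1 by AT3G07320 (0.945), AT5G10770 (0.94) and AT5G23850 (0.936). LPR2 was followed by the proline synthesis gene P5CS2 (0.965), AT3G07870 (0.95) and ATSIK (0.948). For PDR2 the closest gene was ADL6 (0.936), for ALS3 AT4G32460 (0.95) and for STAR1 AT2G03510 (0.923).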

How the data were processed

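RNA from roots was measured in 18 libraries, 3 in each of 6 groups, and the labels' titles gave the groups. The authors deposited 1 table of whole-number read counts per gene, per the values in the file, although its name calls them normalized. A second deposited table gives reads before and after cleaning, as counts and as other text fields. CASAVA 1.4, FastQC, HISAT2, HTSeq and edgeR are named in the submitters' processing notes. The genome build and the use of strand are not given in the sources used here, so the RefSeq TAIR10.1 annotation served only for names (32548 of 37037 entries matched) and for which genes overlap.

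Counts were filtered (edgeR's filterByExpr, minimum count 10), scaled by TMM (factors 0.953 to 1.063) and tested with edgeR 4.0.16 (R 4.3.3, limma 3.58.1) by its quasi-likelihood test, on all 18 libraries with 1 mean per group and 12 residual degrees of freedom. P-values were adjusted by Benjamini-Hochberg over 19982 genes. Before use the fit was run on simulated counts with a small part of the genes changed and no sequencing sets. That run does not show how the fit acts with the many changes and the sets here. DESeq2 1.42.0, other scalings and filters, a replicate block and leaving out each library were alternatives. The sequencing sets, and the fits that use them or leave out both libraries 2, were chosen after seeing the data. The 8 genes and the gene lists were chosen with earlier results of these data known. Genes named from a list were at most its 4 strongest in a comparison, or named there for another comparison. Same-numbered libraries deviated together only between trans-zeatin and untreated roots in low phosphate (r = 0.27, 0.30 and 0.17).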

Additional observations from a re-analysis of the deposited data

Results flagged for a closer look

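The response to trans-zeatin differed between low and full phosphate, by the test of the difference itself, for LPR1 (0.675), LPR2 (-0.61) and STOP1 (-0.267), as log2 changes in low minus full phosphate. The STOP1 value lost its call in 10 of the 12 fits that left out 1 library, with no filter on low counts (adjusted p = 0.0733) and with the sequencing set as a term (adjusted p = 0.308). The difference between trans-zeatin and cis-zeatin also depended on phosphate, for LPR1 (0.966), LPR2 (-0.461) and STOP1 (-0.299). The full-phosphate side of these values compares sequencing set A with set B, so set and isomer cannot be told apart in them. The trans-zeatin libraries of both phosphate levels enter both tests, so these are not separate evidence.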

How the results depend on the processing

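Every value that changed sign was short of the test, and the causes of the changes below were not tested. The replicate block, which pairs same-numbered libraries, changed no call of the 8 genes (trans-zeatin in low phosphate: 6315 genes called, against 6440 without the block). LPR2 in low phosphate was 0.005 with median-of-ratios scaling and in DESeq2, 0.004 with the stricter filter, and -0.064 to 0.055 when 1 library was left out. PDR2 with cis-zeatin in full phosphate was 0.005 with median-of-ratios scaling and in DESeq2, 0.02 with only the compared groups, and -0.037 to 0.027 without 1 library. The trans-zeatin by phosphate value of PDR2 was -0.01 with median-of-ratios scaling and in DESeq2, -0.032 without both libraries 2, and -0.039 to 0.041 without 1 library. Between the isomers in low phosphate 553 genes were called, against 79 with only the compared groups, 898 in DESeq2, 325 without both libraries 2, and 293 (without trans-zeatin replicate 2) to 847 (without cis-zeatin replicate 1).

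Without both libraries 2, the isomer difference in low phosphate was 0.038 for STOP1 and -0.079 for PDR2, low against full phosphate under cis-zeatin was 0.004 for PDR2, and the isomer by phosphate value of ALS3 was -0.181. Without 1 library those values ran from -0.062 to 0.014, -0.045 to 0.187, -0.228 to 0.004 and -0.151 to 0.177. Likewise STOP1 with trans-zeatin in full phosphate ran from -0.026 to 0.002, ALMT1 and MATE with cis-zeatin there from -0.231 to 0.042 and -0.189 to 0.006, the trans-zeatin by phosphate value of ALS3 from -0.262 to 0.067, and STAR1 under cis-zeatin (low against full) from -0.127 to 0.032.

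With the set as a term, trans-zeatin in low phosphate called 4140 genes and 3 of the 8, cis-zeatin there 2678 and 0 (ALMT1 0.234), and low against full phosphate under cis-zeatin 3116 and 2 (STAR1 0.088). Trans-zeatin by phosphate then called 1767 genes and cis-zeatin by phosphate 137 (ALMT1 0.308). The term contrasts set C with A and B together, so the difference of set B from A inside cis-zeatin by phosphate was not adjusted. Within set B, trans-zeatin in low phosphate called 4284 genes and 4 of the 8.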

Other observations

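Other members of the ALMT family, which encode channels for malate and other anions, were measured beside ALMT1, 7 of 13 with enough reads. In low phosphate 2 rose and 1 fell (all tested genes: 22.9% higher, 21.8% lower). ALMT10 fell by 2.84 ± 0.17 on the log2 scale, with 6.93 to 10.8 CPM in untreated roots in low phosphate against 52.4 to 70.1 CPM in untreated roots in full phosphate. ALMT12, a channel gene known from guard cells, rose (1.16 ± 0.21), with 5.71 to 9.47 CPM in low phosphate against 2.97 to 3.75 CPM in full phosphate. Both fell in all 4 zeatin responses, ALMT10 by -2.53 ± 0.25 with trans-zeatin and -2.01 ± 0.23 with cis-zeatin in low phosphate. In full phosphate ALMT10 changed by -2.13 ± 0.16 with trans-zeatin and by -0.85 ± 0.15 with cis-zeatin. Of the 7 genes 3 fell with trans-zeatin in low phosphate (all tested genes: 18.4% lower), and 3 fell and 1 rose with cis-zeatin there (18.1% lower, 13.1% higher). In full phosphate 4 fell and 1 rose with trans-zeatin (25.3% lower, 24.2% higher), and 2 fell and 2 rose with cis-zeatin (13.5% lower, 12.7% higher). The 1 that rose with trans-zeatin there was ALMT14, with very few reads (0.144 to 0.295 CPM, against 0 to 0.0914 CPM in untreated roots). ALMT14 passed the minimum count only through cis-zeatin libraries (0.243 to 0.829 CPM in full and 0.649 to 1.001 CPM in low phosphate), so a rise of ALMT14 is given as a description only.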
